A study of Mus musculus with 18 samples.

Results

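Astrocytes, the star-shaped glial cells of the brain, were followed here through 10 genes that mark them: Aqp4, Gja1, Gfap, Gjb6, Slc1a2, Slc1a3, Aldoc, Glul, S100b and Aldh1l1. The genes were chosen by name as widely used astrocyte markers, with earlier results of these data known. Each was read in every hippocampal library of 3 tables of RNA sequencing counts. The 3 tables together list 11738 gene symbols, and all 10 genes are listed in each table (10541 symbols for the deletion, 10799 for tTA::miR132, 4618 for tTA::miR212). None of the 10 had a count of 0 in any library, and all 10 entered every test.

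The mice were of strain C57BL/6, and the study asked what loss or gain of the microRNAs miR-132 and miR-212 does in the hippocampus. In CaMKII-Cre::miR-132/212f/f mice (miR-132/212 cKO, called the deletion), floxed alleles of both microRNA genes are removed by a Cre recombinase under the CaMKII promoter, which is active in excitatory forebrain neurons and is not directed at astrocytes. In tTA::miR132 and tTA::miR212 mice a tetracycline transactivator drives a transgene for the named microRNA, and the labels do not state the promoter of the transactivator. Each line had its own nontransgenic controls (cKO control, miR132 control and miR212 control), which lack the driver as well as the microRNA change, so that the effects of driver and microRNA cannot be told apart. The labels give no ages. Per the design text, cDNA of 6 animals was pooled into 3 replicates per group. The tables hold 2 libraries per group for the deletion and for tTA::miR132 and 3 per group for tTA::miR212, 14 in all, and they are named by group and number. The third library of the other groups was not analysed here.

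Astrocytes take up the glutamate that neurons release, turn it into glutamine and hand it back, and they buffer potassium and water through channels gathered at their end-feet on blood vessels. They are joined into a network by gap junctions built from connexins. When tissue is injured they become reactive and make more of intermediate filament proteins such as GFAP. miR-132 and miR-212 are made from neighbouring genes and lower the level or the translation of messages that pair with their seed, the short stretch near the 5′ end of the microRNA.

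The mature sequences are shown because both microRNAs share a seed, so that a single search covers them. They are from RefSeq (GRCm38.p6, chromosome 11, plus strand), written 5′ to 3′ with the seed, bases 2 to 8, in capitals.
mmu-miR-132-3p: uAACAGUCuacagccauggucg
mmu-miR-212-3p: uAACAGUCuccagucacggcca
The DNA letters that pair with this seed, GACTGTT, were searched on the message strand in the annotated 3′ UTRs of the members (GENCODE vM1 on NCBIM37, the build mm9 of the tables). A match was found in 2 of 10 members, Glul and Slc1a2, against 1612 of 11272 genes of the tables with an annotated 3′ UTR (14.3%). These are the sites, with the match in capitals.
Glul, chr1:155756543-155756549, plus strand: ctctgccagcaGACTGTTactttccttctg
Slc1a2, chr2:102627557-102627563, plus strand: acctaacaacaGACTGTTatccttatcacc
In both genes the base after the match is A, opposite the 5′ base of the microRNA. A match is a description of the letters and was not tested as a target site. The other members, Aqp4, Gja1, Gfap, Gjb6, Slc1a3, Aldoc, S100b and Aldh1l1, have no such letters in their annotated 3′ UTRs.

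The libraries held 8190899 to 14772907 counts in the deletion and tTA::miR132 tables and 1299369 to 1544923 in the tTA::miR212 table, counted over 1 transcript per gene. Levels below are CPM, counts scaled to these raw totals, and are set side by side within a table only, because the tables differ in annotation and in the genes they list. Deletion library 1 stood apart, with 1047 of 10541 genes (9.93%) at 0, against 73 to 120 genes in the other libraries of its table. The tTA::miR132 libraries 1 and 2 had 262 and 92 genes at 0, against 155 and 485 in their controls. The spread between replicate libraries beyond counting error, the biological coefficient of variation, was 74.2% for the deletion, 60.7% for tTA::miR132 and 8.58% for tTA::miR212. Replicates are described as pools of animals, and p-values measure the spread between such libraries. In whole tissue, fewer astrocytes and less of a message per astrocyte cannot be told apart.

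No astrocyte marker passed the test in any of the 3 comparisons. With edgeR's quasi-likelihood test and Benjamini-Hochberg adjustment over all genes tested, 0 of 10 members had an adjusted p under 0.05, beside 0% of 10487 genes for the deletion, 0% of 10734 for tTA::miR132 and 0% of 4618 for tTA::miR212. At an unadjusted edgeR p under 0.05 there were 0 members for the deletion (0.839% of genes), 1 for tTA::miR132 (2.82%) and 3 for tTA::miR212 (5.63%). DESeq2 called 5, 39 and 0 genes in the same order of comparisons and limma-voom 0, 2 and 0, with no member among them. The median log2 fold change of the members was 0.03 for the deletion, -0.09 for tTA::miR132 and 0.04 for tTA::miR212, beside -0.03, -0.002 and 0.003 over all genes tested. Summed over the 10 genes, levels were 6678 and 7137 CPM in the deletion libraries against 7039 and 7014 CPM in their controls. The sums were 7249 and 6875 CPM in tTA::miR132 libraries against 6887 and 7650 CPM in controls, and 8537, 7930 and 10085 CPM in tTA::miR212 libraries against 8710, 8466 and 8376 CPM in controls. The summed levels overlap between the groups of each comparison, and tTA::miR212 library 3 is above every other library of its table.

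**Figure D1:**
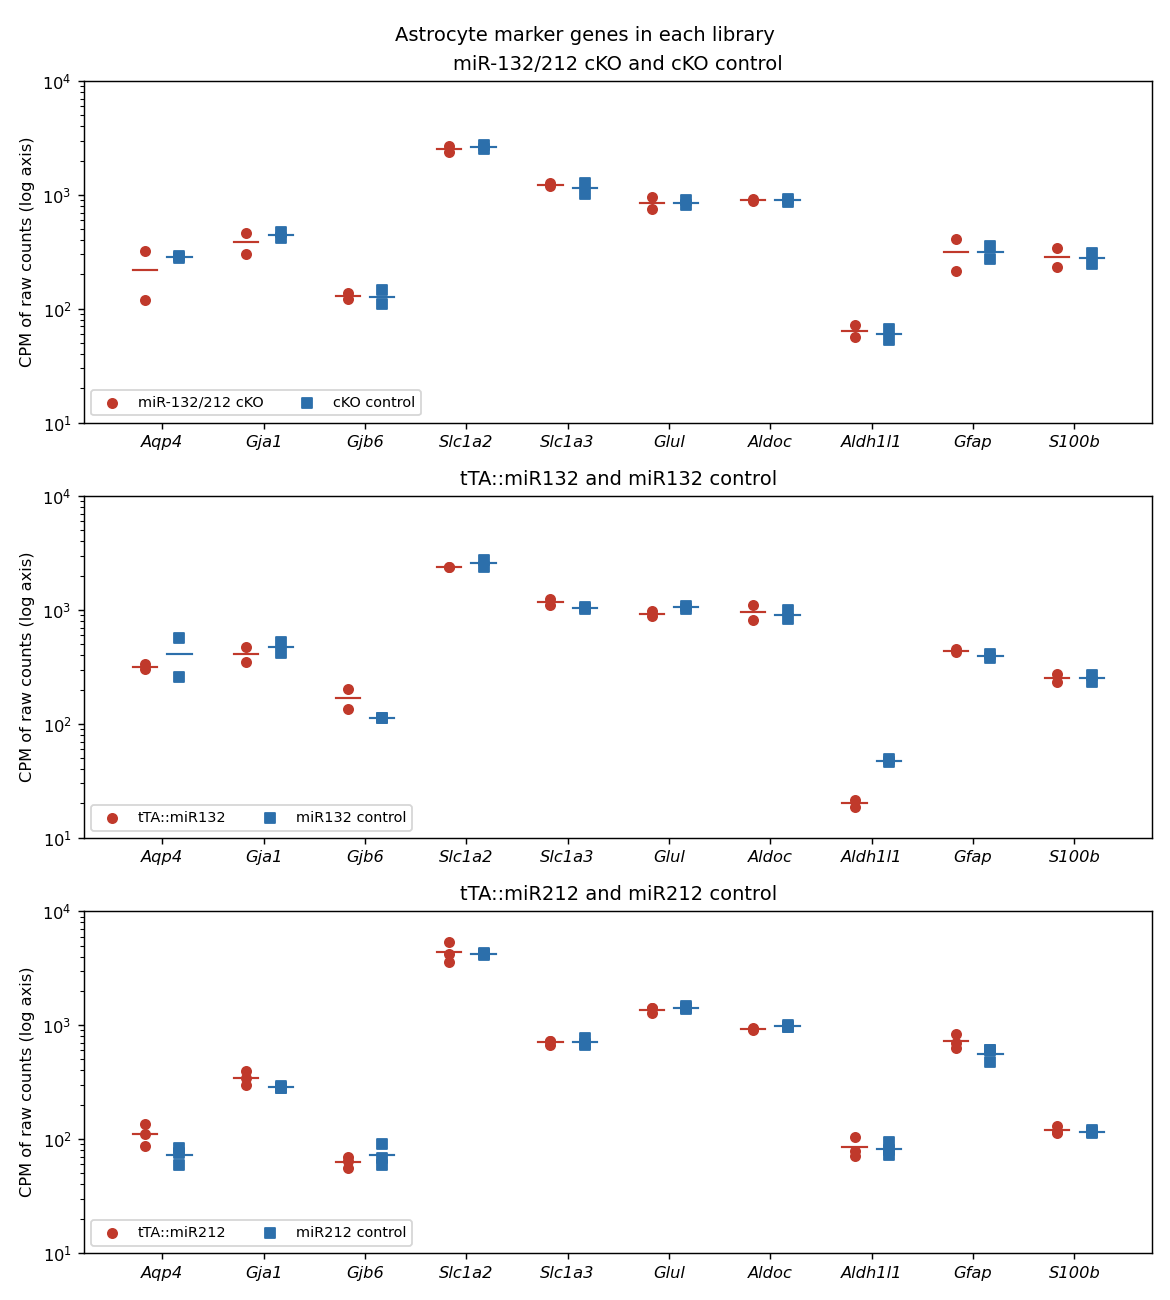
Level of each astrocyte marker gene in each library, as CPM of raw counts on a log axis, with a panel for each comparison; points are libraries and short lines are group means. Aldh1l1 stands below its controls in tTA::miR132 libraries (18.8 and 21.5 CPM against 49.4 and 45.9 CPM), and the point of Aqp4 at 119 CPM is deletion library 1.

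Per length of transcript, the markers spanned a wide range in the tTA::miR212 table. Each level there is that of the transcript kept for the gene, and overlapping transcripts of a gene can share reads. In tTA::miR212 libraries the mean CPM per kilobase of exon (± SD, n = 3) was 489 ± 25.6 for Glul, 379 ± 80.1 for Slc1a2, 332 ± 8.46 for Aldoc and 273 ± 39.1 for Gfap. The controls (n = 3) had 509 ± 16.5 for Glul, 364 ± 9.44 for Slc1a2, 351 ± 7.05 for Aldoc and 212 ± 27.6 for Gfap. These 4 genes encode glutamine synthetase, a glutamate transporter, an enzyme of sugar breakdown and a filament protein, and they were the highest of the 10 per length. Slc1a2 and Aldoc overlapped in controls (356 to 374 against 345 to 359 CPM per kilobase), so their order there is within the spread. Slc1a3 followed with 171 ± 8.51 in tTA::miR212 libraries and 170 ± 12.1 in controls, then Gja1 with 111 ± 15.3 and 91.8 ± 1.91, S100b with 80.9 ± 5.99 and 77.9 ± 2.73, and Gjb6 with 29.9 ± 3.20 and 34.4 ± 7.55. The lowest were Aldh1l1, at 20.2 ± 4.04 in tTA::miR212 libraries and 19.6 ± 2.65 in controls, and Aqp4, at 21.9 ± 4.83 and 14.3 ± 2.49 in the same groups. Aqp4 lay below Aldh1l1 in every control library, while the ranges of these genes overlapped in tTA::miR212 libraries. This order is that of the tTA::miR212 table only. In CPM, without length, Aqp4 had 293 and 279 in cKO controls against 65.8 and 53.5 for Aldh1l1. In miR132 controls Aqp4 had 261 and 563 CPM against 49.4 and 45.9 CPM for Aldh1l1. The cause of this difference between the tables was not tested.

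**Figure D2:**
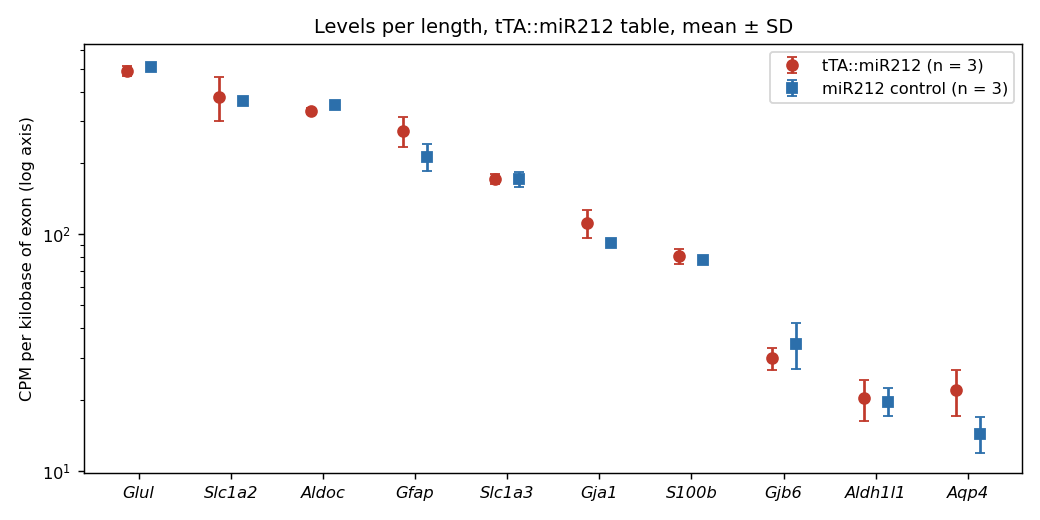
CPM per kilobase of exon on a log axis for the 10 genes in the tTA::miR212 table, as mean ± SD of 3 libraries, in order of the control mean. The level runs from Glul (489 in tTA::miR212 and 509 in controls) to Aqp4 (21.9 in tTA::miR212 and 14.3 in controls).

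The end-foot water channel aquaporin-4, encoded by Aqp4 on chromosome 18, was above all controls in each tTA::miR212 library. Aqp4 had 87.4, 111 and 136 CPM in tTA::miR212 libraries 1 to 3 against 75.8, 83.9 and 59.1 CPM in controls. This is a log2 fold change of 0.61 (SE 0.17, n = 3 each), with an edgeR p of 0.00313 and an adjusted p of 0.714 over 4618 genes. Without tTA::miR212 library 1 the log2 fold change was 0.75, and edgeR's adjusted p was 0.0438, within a range of 0.0438 to 1.00 over 13 alternatives. That library is the transgenic library nearest the controls, so leaving it out had to raise the fold change. The setting called 18 genes. The 2 Aqp4 transcripts listed for this table had the same counts, so they give a single value.

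In the other comparisons 1 library set the mean of Aqp4. The deletion libraries had 119 and 320 CPM against 293 and 279 CPM in controls, a log2 fold change of -0.38 (SE 0.45, n = 2 each; edgeR adjusted p 0.999). The groups overlap, since deletion library 2 is above both controls and library 1 far below them. Without deletion library 1, in which 9.93% of genes were at 0, the log2 fold change was 0.15. Without deletion library 2, when library 1 alone stands for the deletion and is assumed to vary like the controls, it was -1.20 with an edgeR adjusted p of 0.00011, in a setting that called 4527 genes. The range of that adjusted p over 10 alternatives was 0.00011 to 1.00. In tTA::miR132 libraries Aqp4 had 301 and 335 CPM against 261 and 563 CPM in controls, a log2 fold change of -0.43 (SE 0.31; edgeR adjusted p 0.997) that was 0.27 without control library 2.

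Gja1 encodes connexin 43, the main gap junction protein of astrocytes (chromosome 10, 56097105 to 56110225, plus strand, mm9). Gja1 had 301, 341 and 396 CPM in tTA::miR212 libraries against 280, 292 and 283 CPM in controls. Again the lowest transgenic library was above the highest control, with a log2 fold change of 0.27 (SE 0.09), an edgeR p of 0.00915 and an adjusted p of 0.801. The deletion libraries had 306 and 463 CPM against 472 and 422 CPM in controls, and tTA::miR132 libraries had 349 and 470 CPM against 423 and 521 CPM in controls. Both of these pairs of groups overlap, with log2 fold changes of -0.20 (SE 0.25) for the deletion and -0.25 (SE 0.21) for tTA::miR132 and edgeR adjusted p of 0.999 and 0.997.

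Gjb6, which encodes connexin 30, another astrocyte connexin, had a different pattern from Gja1. Gjb6 (chromosome 14, 57742139 to 57752414, minus strand, mm9) had 203 and 136 CPM in tTA::miR132 libraries against 112 and 113 CPM in controls. Both transgenic libraries were above both controls, but they lie farther apart than the means of the groups differ. The log2 fold change was 0.55 (SE 0.31, n = 2 each; edgeR p 0.0989, adjusted p 0.997), and it was 0.23 to 0.82 as each library was left out. In tTA::miR212 libraries the level was 64.4, 55.7 and 68.9 CPM against 68.4, 90.0 and 59.1 CPM in controls, and the groups overlap. The deletion libraries had 122 and 139 CPM, inside the range of 109 to 146 CPM of their controls.

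The further connexins set beside these members numbered 6 in the deletion table, 4 with tTA::miR132 and 1 with tTA::miR212. None passed edgeR's test or had an unadjusted p under 0.05. The connexin listed for tTA::miR212 was Gjc3, of oligodendrocytes, at 81.3, 75.7 and 80.3 CPM in tTA::miR212 libraries against 70.6, 63.9 and 66.7 CPM in controls (log2 fold change 0.23, SE 0.13, edgeR adjusted p 0.907). Its transgenic libraries all lay above the controls, as did those of 6.47% of all genes tested. Of 12 listed genes for end-foot water and potassium handling, 0 were called in any comparison by edgeR. For tTA::miR212 9 of the 12 had a log2 fold change above 0, with a median of 0.03 beside 0.003 over all genes. Of these, 1 had every transgenic library above every control, beside 6.47% of genes. For tTA::miR132 8 of the 12 were below 0, with a median of -0.16 beside -0.002. For the deletion 6 were above and 6 below 0, with a median of 0.05 beside -0.03.

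Slc1a2, a glutamate transporter gene, was the most counted member in every table. It encodes GLT-1, which clears most of the glutamate of the forebrain (chromosome 2, 102498839 to 102630941, plus strand, mm9). Slc1a2 had 2403 and 2385 CPM in tTA::miR132 libraries against 2411 and 2723 CPM in controls. The transgenic libraries are below both controls, although library 1 lies close to the lower control. With edgeR this is a log2 fold change of -0.14 (SE 0.12) and an adjusted p of 0.997. In tTA::miR212 libraries Slc1a2 had 4200, 3589 and 5412 CPM against 4342, 4131 and 4185 CPM in controls. The transgenic libraries lie on both sides of the controls, and library 3 is the highest of the table, with a log2 fold change of 0.05 (SE 0.17) that was -0.13 without that library. The 10 transcripts listed for Slc1a2 had log2 fold changes of 0.00 to 0.08. The deletion libraries had 2369 and 2662 CPM against 2729 and 2518 CPM in controls.

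Slc1a3 encodes GLAST, the second glutamate transporter of astrocytes (chromosome 15, 8584125 to 8660807, minus strand, mm9). Slc1a3 had 1244 and 1100 CPM in tTA::miR132 libraries against 1031 and 1062 CPM in controls. Both transgenic libraries are above both controls by raw totals, and the groups overlap when totals are scaled by TMM factors (log2 fold change 0.12, SE 0.14, edgeR adjusted p 0.997). In tTA::miR212 libraries it had 670, 731 and 731 CPM against 766, 674 and 685 CPM in controls, and in deletion libraries 1273 and 1192 CPM against 1009 and 1268 CPM in controls. These groups overlap in both comparisons.

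Glul encodes glutamine synthetase, which turns the captured glutamate into glutamine (chromosome 1, 155747074 to 155756844, plus strand, mm9), and it carries a seed match shown above. Glul had 972 and 887 CPM in tTA::miR132 libraries against 1091 and 1015 CPM in controls. Both transgenic libraries are below both controls, with a log2 fold change of -0.22 (SE 0.14, edgeR p 0.143, adjusted p 0.997) that stayed between -0.30 and -0.15 as each library was left out. In tTA::miR212 libraries Glul had 1412, 1284 and 1403 CPM against 1381, 1412 and 1472 CPM in controls (log2 fold change -0.07, SE 0.06, edgeR adjusted p 0.933). In deletion libraries it had 955 and 757 CPM against 819 and 895 CPM in controls, with deletion library 1 above and library 2 below both controls. Glul and Slc1a2, the members with a seed match, were lower in every tTA::miR132 library and overlapped their controls in the other comparisons. Aldh1l1, with no seed match, was also lower in every tTA::miR132 library, and so were 14.3% of all genes tested.

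The rest of the glutamate and glutamine cycle gave no call. Of 13 other genes of the cycle listed for the deletion, 13 for tTA::miR132 and 12 for tTA::miR212, edgeR called 0 in each comparison, and none had an unadjusted p under 0.05. Slc1a1, the neuronal glutamate transporter, had 214 and 189 CPM in deletion libraries against 121 and 145 CPM in controls (log2 fold change 0.62, SE 0.27, edgeR p 0.0654, adjusted p 0.999).

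Aldh1l1 had the largest difference of the 10 genes. It encodes an enzyme of folate metabolism, 10-formyltetrahydrofolate dehydrogenase, and is used to label astrocytes (chromosome 6, 90500841 to 90549165, plus strand, mm9). Aldh1l1 had 18.8 and 21.5 CPM in tTA::miR132 libraries against 49.4 and 45.9 CPM in controls. The transgenic libraries lie close together and far below both controls, with means of 20.2 ± 1.93 and 47.6 ± 2.47 CPM (SD, n = 2 each), a difference of -57.6%. The log2 fold change was -1.28 (SE 0.59), with an edgeR p of 0.0499 and an adjusted p of 0.997 over 10734 genes. DESeq2 gave an adjusted p of 0.122, the lowest of 10 alternatives that reached 1.00, and the log2 fold change stayed between -1.37 and -1.20 in all of them.

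Aldh1l1 did not show this difference in the other comparisons. In tTA::miR212 libraries it had 103, 71.2 and 78.9 CPM against 80.2, 93.9 and 72.0 CPM in controls, and in deletion libraries 56.9 and 71.3 CPM against 65.8 and 53.5 CPM in controls. Both pairs of groups overlap. Whether the comparisons differ in Aldh1l1 was not tested. A gene on the opposite strand, Gm15756, shares 11.1% of the annotated exon bases of Aldh1l1, and without strand its reads cannot be told apart from those of Aldh1l1. Among the other folate enzymes, 7 were listed for the deletion, 8 for tTA::miR132 and 1 for tTA::miR212, with 0 called by edgeR and 0 at an unadjusted p under 0.05. Shmt2, the mitochondrial serine hydroxymethyltransferase, had 35.1 and 29.2 CPM in tTA::miR132 libraries against 15.7 and 11.3 CPM in controls (log2 fold change 1.21, SE 0.76, edgeR adjusted p 0.997).

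Aldoc encodes aldolase C, the brain form of a glycolytic enzyme, which astrocytes hold in large amounts (chromosome 11, 78137699 to 78140262, plus strand, mm9). Aldoc had 950, 918 and 904 CPM in tTA::miR212 libraries against 999, 961 and 970 CPM in controls. All 3 transgenic libraries are below all 3 controls, but the step is small, at -5.43% of the mean and a log2 fold change of -0.09 (SE 0.06, edgeR p 0.155, adjusted p 0.913). In deletion libraries it had 923 and 886 CPM against 921 and 869 CPM in controls, the narrowest spread of any member in that table. In tTA::miR132 libraries it had 1099 and 812 CPM against 832 and 992 CPM in controls, where the transgenic libraries enclose both controls.

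Other genes of glycolysis were listed for 18, 19 and 14 genes in the deletion, tTA::miR132 and tTA::miR212 tables, with 0 called by edgeR in each. For tTA::miR212 10 of 14 were below 0, with a median log2 fold change of -0.06 beside 0.003 over all genes. For tTA::miR132 14 of 19 were below 0 (median -0.075 beside -0.002), and for the deletion 8 of 18 (median 0.05 beside -0.03). Slc2a1, the glucose transporter GLUT1 of vessels and astrocytes, had 114, 102 and 128 CPM in tTA::miR212 libraries against 140, 159 and 147 CPM in controls (log2 fold change -0.38, SE 0.11, edgeR p 0.00358, adjusted p 0.719). In the tTA::miR132 table the same gene had 191 and 137 CPM against 127 and 79.5 CPM in controls (log2 fold change 0.63, SE 0.33, edgeR adjusted p 0.997), so the values lie on opposite sides of the controls in these comparisons, with neither past the test.

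Gfap encodes glial fibrillary acidic protein, the intermediate filament of astrocytes (chromosome 11, 102748649 to 102758514, minus strand, mm9). Gfap had 635, 699 and 838 CPM in tTA::miR212 libraries against 602, 607 and 478 CPM in controls. The groups do not overlap, and the gap between the lowest transgenic and the highest control library is small against the spread within either group. The log2 fold change was 0.36 (SE 0.12, n = 3 each), with an edgeR p of 0.0129 and an adjusted p of 0.818. The other Gfap transcript of the table had a log2 fold change of 0.37 (SE 0.10). In tTA::miR132 libraries Gfap had 428 and 453 CPM against 410 and 381 CPM in controls, also without overlap, a log2 fold change of 0.11 (SE 0.18, edgeR adjusted p 0.997). The deletion libraries had 213 and 414 CPM, below and above the 273 and 353 CPM of controls, with a log2 fold change of 0.01 (SE 0.35).

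S100b encodes a calcium-binding protein that astrocytes make and release (chromosome 10, 75716580 to 75724064, plus strand, mm9). S100b had 113, 130 and 116 CPM in tTA::miR212 libraries against 115, 120 and 112 CPM in controls. In tTA::miR132 libraries it had 231 and 275 CPM against 268 and 235 CPM in controls, and in deletion libraries 341 and 234 CPM against 311 and 248 CPM in controls. All 3 pairs of groups overlap, and the log2 fold changes lay between -0.03 and 0.07. Other S100 genes were listed for 6 genes in the deletion table and 6 for tTA::miR132, with 0 called by edgeR.

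**Figure D3:**
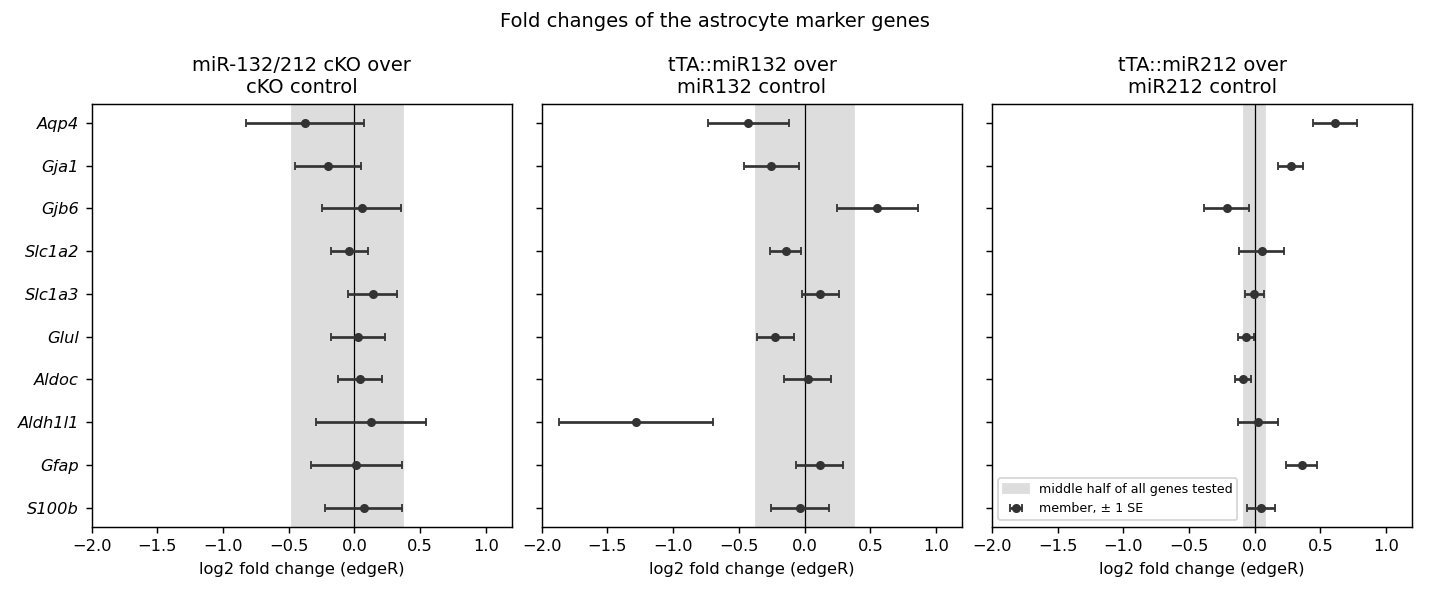
Log2 fold change of each gene over its controls from edgeR, with bars of ± 1 SE, in the deletion, tTA::miR132 and tTA::miR212 comparisons; the grey band holds the values between the lower and upper quartile of all genes tested. Aqp4 (0.61), Gfap (0.36) and Gja1 (0.27) lie right of the narrow tTA::miR212 band, and Aldh1l1 (-1.28) lies left of the tTA::miR132 band.

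Groups that do not overlap were read against all genes. For tTA::miR212, 3 members (Aqp4, Gja1 and Gfap) had every transgenic library above every control, as had 6.47% of all genes tested, and 1 member (Aldoc) had every library below, as had 4.96% of genes. For tTA::miR132, 3 members (Gfap, Gjb6 and Slc1a3) were above in every library, beside 18.8% of genes, and 3 (Slc1a2, Glul and Aldh1l1) were below, beside 14.3%. For the deletion 0 members were above, beside 14.3% of genes, and 0 below, beside 18% of genes. In the authors' deposited table, q was under 0.05 for 5 members in the deletion, where it was so for 54.3% of genes, for 8 members with tTA::miR132 (53.1% of genes) and for 0 members with tTA::miR212 (0.0866% of genes). The 5 members of the deletion were Aqp4, Gfap, Glul, S100b and Slc1a2, and their groups overlap by library in the counts.

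Aqp4, Gja1 and Gfap are set together here because their groups do not overlap in the tTA::miR212 table, so their common direction is no separate result. In each of the 3 genes transgenic library 3 was the highest of the 6 libraries and transgenic library 1 the lowest of the transgenic libraries. Library 3 was also the highest for Slc1a2 (5412 CPM), whose groups overlap, and for the sum of all members (10085 CPM). Whether this order belongs to the genes or to the library was not tested. Control library 3 was the lowest of the table for Aqp4 (59.1 CPM) and Gfap (478 CPM), while for Gja1 it lay between the other controls. As the groups of these genes do not overlap, leaving out a library could not turn the sign of their fold changes, only their size. With each library left out in turn, the log2 fold changes ranged from 0.44 to 0.75 for Aqp4, 0.16 to 0.36 for Gja1, and 0.23 to 0.44 for Gfap.

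Genes of reactive astrocytes and others enriched in astrocytes gave values next to these. Of 19 genes of the reactive list 3 were listed in the tTA::miR212 table, and edgeR called 0, while 2 had an unadjusted p under 0.05. Vim encodes vimentin, an intermediate filament protein that is made with GFAP in reactive astrocytes, and it had 63.6, 67.3 and 84.3 CPM in tTA::miR212 libraries against 55.9, 57.7 and 40.9 CPM in controls (log2 fold change 0.47, SE 0.18, edgeR adjusted p 0.818). Synm encodes synemin, a partner of both filaments, and had 136, 136 and 140 CPM against 113, 101 and 105 CPM in controls (log2 fold change 0.36, SE 0.10, edgeR adjusted p 0.714). In both genes the transgenic libraries all lay above the controls, and Vim had the same highest and lowest library of the table as Gfap.

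Of 39 other astrocyte-enriched genes 27 were listed there, with 0 called by edgeR, 2 higher and 1 lower at an unadjusted p under 0.05, and a median log2 fold change of 0.03 beside 0.003 over all genes. Of the 27, 16 were above 0 and 11 below; 2 had every transgenic library above every control, beside 6.47% of genes, and 2 had every one below, beside 4.96%. Ednrb, 1 of the 2 that were above, the endothelin receptor B, had 72.1, 64.1 and 74.9 CPM in tTA::miR212 libraries against 59.6, 53.1 and 47.0 CPM in controls (log2 fold change 0.39, SE 0.17, edgeR adjusted p 0.845). Slc6a11, the GABA transporter GAT-3 of astrocytes, had 188, 256 and 256 CPM against 183, 172 and 188 CPM in controls (log2 fold change 0.36, SE 0.11, edgeR adjusted p 0.801). Mt1, a metallothionein, had 271, 241 and 231 CPM against 293, 306 and 253 CPM in controls (log2 fold change -0.21, SE 0.09, edgeR adjusted p 0.847). The list as a whole summed to 12977 to 13087 CPM in tTA::miR212 libraries against 12548 to 13084 CPM in controls, which overlap.

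**Figure D4:**
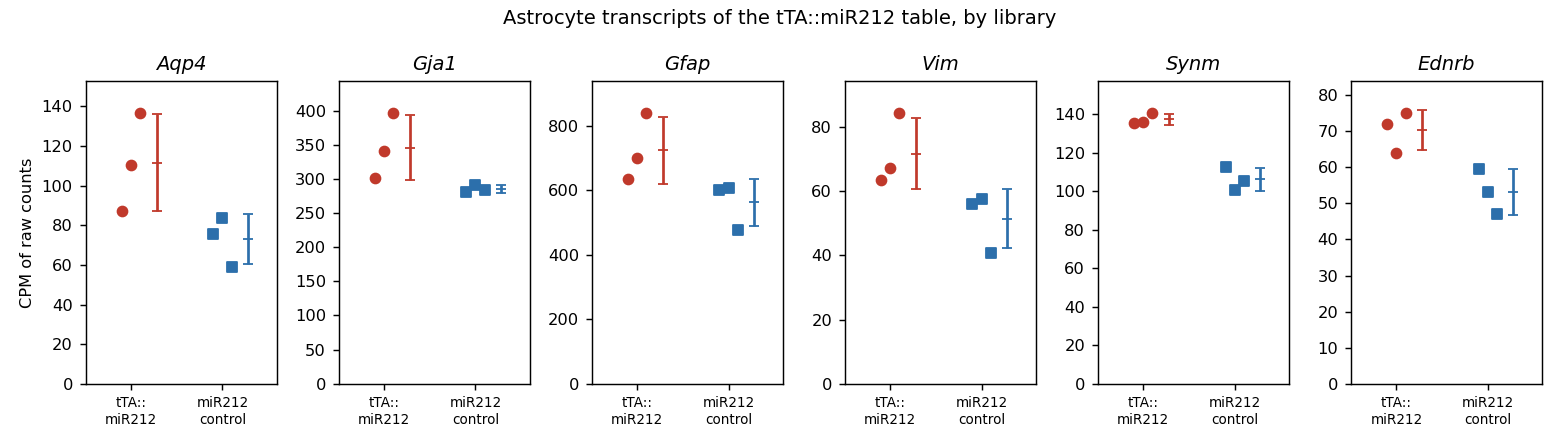
CPM of Aqp4, Gja1 and Gfap and of Vim, Synm and Ednrb in the 3 tTA::miR212 and the 3 miR212 control libraries, in the order of their numbers, with the mean ± SD beside the points and axes that start at 0. Every tTA::miR212 point lies above every control point in each of the 6 genes, which were drawn because they lie so, as 6.47% of all genes tested do; the smallest adjusted p is 0.714 (edgeR).

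In the other comparisons these lists showed 0 calls by edgeR. Vim had 157 and 97.5 CPM in deletion libraries against 72.3 and 60.7 CPM in controls (log2 fold change 0.97, SE 0.39, edgeR p 0.0486, adjusted p 0.999), the single gene of the 12 reactive genes listed there with an unadjusted p under 0.05. Gfap did not follow it in that table, since its groups overlap. In tTA::miR132 libraries Vim had 53.1 and 85.6 CPM against 70.9 and 143 CPM in controls. The astrocyte-enriched list, with 35 genes listed in both tables, had a median log2 fold change of 0.09 for the deletion and 0.01 for tTA::miR132, and summed to 13644 to 13695 CPM in deletion libraries against 13119 to 13675 CPM in controls. The listed reactive genes summed to 434 and 415 CPM in deletion libraries against 374 and 370.3 CPM in controls, to 471 and 494 CPM in tTA::miR132 libraries against 359.7 and 458 CPM in controls, and to 254, 284 and 301 CPM in tTA::miR212 libraries against 243, 239 and 209 CPM in controls. These sums do not overlap between groups in any of the 3 comparisons, over 12, 11 and 3 listed genes in that order. Of these genes, 6, 8 and 2 had a log2 fold change above 0. Every tested library was above every control for 3, 3 and 2 of them, beside 14.3%, 18.8% and 6.47% of all genes. Every one was below for 2, 1 and 0 of them, beside 18%, 14.3% and 4.96%. Few genes can set such sums: the higher values of Vim are part of those of the deletion and tTA::miR212, and the higher values of Synm part of the latter. For tTA::miR132 the groups of Vim overlap, and 3 of the 11 genes had a log2 fold change below 0. Stat3, a listed reactive gene, had 87.3 and 71.1 CPM in tTA::miR132 libraries against 62.6 and 7.71 CPM in controls. The value of 7.71 CPM is that of control library 2, which had 485 genes at 0. No test was made of the sums.

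The promoter of Gfap is shown for the motif that STAT transcription factors bind, since STAT3 drives Gfap in reactive astrocytes. That of Gja1 is shown for contrast, as another member above its controls in every tTA::miR212 library. Both are RefSeq windows of GRCm38.p6 from 250 bases before to 50 after the start, on the strand of the gene, with matches to TTCNNNGAA on either strand in capitals.
Gfap, chr11:102897151-102897450, minus strand: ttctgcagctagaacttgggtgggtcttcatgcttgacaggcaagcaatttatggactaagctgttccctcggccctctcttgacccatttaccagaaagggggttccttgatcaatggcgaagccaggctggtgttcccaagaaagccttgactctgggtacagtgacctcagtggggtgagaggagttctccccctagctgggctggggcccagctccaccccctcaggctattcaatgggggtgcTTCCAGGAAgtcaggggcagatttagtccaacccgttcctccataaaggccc
Gja1, chr10:56377050-56377349, plus strand: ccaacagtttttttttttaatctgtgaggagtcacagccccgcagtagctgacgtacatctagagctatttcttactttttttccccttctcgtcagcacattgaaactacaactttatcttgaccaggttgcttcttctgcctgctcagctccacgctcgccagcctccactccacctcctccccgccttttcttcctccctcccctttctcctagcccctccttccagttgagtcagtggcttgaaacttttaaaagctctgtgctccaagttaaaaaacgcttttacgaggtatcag
Gfap has 1 match, as 8.33% of 32544 promoter windows of the same length have at least 1, and Gja1 has none. Of the other members, Slc1a3 and a window of Aldoc also have matches. The short site of NFI factors, TTGGC, is in neither window on either strand and in 46.9% of all windows.

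Over all 14 libraries the members did not move as a single block. Pearson's r between log2(CPM + 1) values centred within each table was highest for Aqp4 and Gja1 at 0.89, and 0.84 without deletion library 1. Aqp4 and Gfap had 0.71 and Gja1 and Gfap 0.62, which were 0.57 and 0.45 without that library. Slc1a3 and Aldh1l1 (-0.60) and Glul and Gfap (-0.60) had the lowest values. Against the mean of the other 9 members, Gja1 had 0.69, Aqp4 0.68 and Slc1a2 0.61, whereas S100b had -0.51, Glul -0.44 and Slc1a3 -0.36. These are descriptions over libraries that share 3 tables and their depth, and the group differences given above are part of them.

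**Figure D5:**
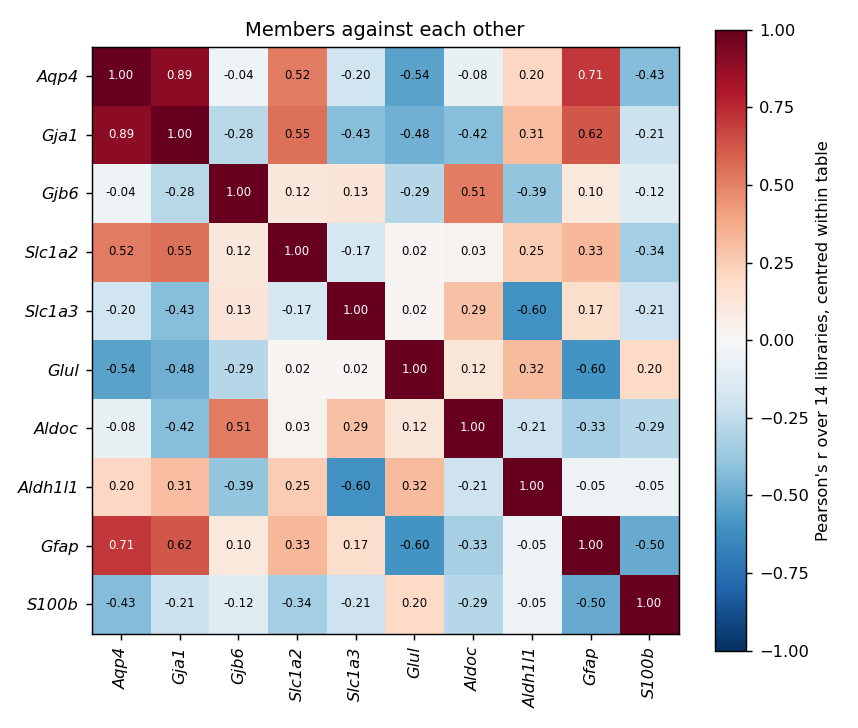
Pearson's r between each pair of the 10 genes over 14 libraries, from log2(CPM + 1) centred within each table; red is above 0 and blue below. Aqp4 and Gja1 (0.89) and Aqp4 and Gfap (0.71) form the reddest cells off the diagonal.

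The same measure named the genes whose pattern over libraries was most like the mean of the 10 members, among 3953 other genes with a mean of at least 20 CPM in every table. They were Gspt1 (r 0.88, or 0.84 without deletion library 1), Gabra2 (0.85, or 0.79), Paqr8 (0.84, or 0.83), Nfib (0.84, or 0.80) and Psmd6 (0.84, or 0.79). None of these 5 is on the lists of astrocyte genes used here. The values were not scaled, so members that vary more weigh more in this mean. The SD of log2(CPM + 1) was 0.66, 0.48 and 0.42 for Aqp4 in the deletion, tTA::miR132 and tTA::miR212 tables. For Aldoc it was 0.04, 0.21 and 0.05 in the same order. The 5 genes are the highest of those compared, and whether such r differ from those of unrelated genes was not tested.

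The libraries also differed in other cells' markers beside the astrocyte genes. The 8 listed markers of the choroid plexus and ependyma, the epithelia along the ventricles, summed to 998 and 2504 CPM in deletion libraries against 5451 and 6303 CPM in controls, with 6 of 8 lower in every deletion library, beside 18% of all genes, and Otx2 at 0 in both deletion libraries. The 9 listed for tTA::miR132 summed to 4978 and 3647 CPM against 6495 and 4986 CPM in controls. These sums do not overlap, although tTA::miR132 library 1 lies close to the lower control. Of the 9, 4 were lower in every tTA::miR132 library, beside 14.3% of all genes. An unadjusted edgeR p under 0.05 was found for 3 of them, all lower, with 0 called. Their median log2 fold change was -0.96 beside -0.002 over all genes. Oligodendrocyte markers (9 listed) summed to 5301 and 5067 CPM in tTA::miR132 libraries against 4151 and 4348 CPM in controls, with Mbp and Mal at an unadjusted edgeR p under 0.05 and no call. Neuron markers (10 listed) summed to 10090 and 10260 CPM in deletion libraries against 9847 and 9815 CPM in controls. The sums of the other marker lists, among them meninges and fibroblasts at 954 to 1219 CPM in deletion libraries against 1017 to 1038 CPM in controls, overlapped between groups in both comparisons. The part of these other cells in the values of Aldh1l1, Gjb6, Glul and the other members was not tested.

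In the tTA::miR212 table the sums of the other cell types overlapped between groups. So did the sums of the astrocyte members (7930 to 10085 against 8376 to 8710 CPM in controls) and of the other astrocyte-enriched genes (12977 to 13087 against 12548 to 13084 CPM). Among single genes, Gjc3 of oligodendrocytes had every transgenic library above every control, as had Aqp4, Gja1 and Gfap and 6.47% of all genes tested. Of the 9 oligodendrocyte markers, 0 lay so, and 6 had a log2 fold change below 0. Of these markers 1, Mobp, had every transgenic library below every control, beside 4.96% of genes. Mobp had 410, 393 and 416 CPM in tTA::miR212 libraries against 461, 496 and 433 CPM in controls. Neuron markers (11 listed) summed to 13930.1 to 14896 CPM in tTA::miR212 libraries against 14389.7 to 15332 CPM in controls, and oligodendrocyte markers (9 listed) to 6510.4 to 7040.4 against 6907 to 7136 CPM. Microglia markers (4 listed) summed to 411 to 476 against 394 to 416 CPM, those of endothelium and pericytes (2 listed) to 192.2 to 200.1 against 183.9 to 192.4 CPM, and those of oligodendrocyte precursors (3 listed) to 395 to 511 against 397 to 439.9 CPM. Those of meninges and fibroblasts (2 listed) summed to 535 to 671 against 573 to 648 CPM. Choroid plexus markers (3 listed) ran from 219 to 1420.4 CPM in tTA::miR212 libraries and from 534 to 1412 CPM in controls.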

How the data were processed

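Polyadenylated RNA of hippocampus was sequenced and, per the design text, reads were aligned with Bowtie 0.12.7 to mm9; for the counting tool, the annotation and the authors' gene filter nothing is stated in the sources at hand. The deposited values used are raw counts per gene, whole numbers and not normalized per the file headers. The authors' q-values, adjusted p-values of their own comparisons per the file headers, were read only where named. A further 14 columns of normalized values were not used. For the tTA::miR212 table, which lists transcripts, the transcript with the highest mean count per symbol was kept.

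Counts were tested within each table with edgeR 4.0.16 in R 4.3.3 (quasi-likelihood test, TMM factors, filterByExpr, robust), with a threshold of 0.05 on the adjusted p, and the scripts were tested on simulated data. The SE of a fold change is its size over the root of the F statistic. CPM is the count over the raw total of listed genes, so those totals are not full depths, and no molecular identifiers were used. Alternatives were DESeq2 1.42.0, limma-voom (limma 3.58.1), RLE factors, raw totals, no filter, all transcripts, each library left out and the library number as a block. Counts of replicates differed beyond sampling noise (chi-square per degree of freedom of at least 1.39), so each was counted. Columns carry a group and a number and were tied to no single sample. Per-length levels and 3′ UTRs used GENCODE vM1 on NCBIM37, and microRNAs and promoters used RefSeq tables of GRCm38.p6, in which 9 of 10 members were read, Aqp4 being left out.

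The members and the 15 gene lists set beside them were chosen with earlier results of these data known, and the lists are described by counts. All members are named; of the other lists, genes named come from those with the 2 smallest edgeR p or an unadjusted p under 0.05 in a comparison, and the genes of like pattern are the 5 with the highest r.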

Additional observations from a re-analysis of the deposited data

How the results depend on the processing

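The deletion and tTA::miR132 tables have 2 libraries per group and a biological coefficient of variation of 74.2% and 60.7%, and the tTA::miR212 table has 3 per group, 8.58% and 1299369 to 1544923 counts per library; edgeR called 0 genes in each. No member was called in any comparison under DESeq2, limma-voom, RLE factors, raw totals, no filter and the replicate block. Genes called in the deletion were 5 under DESeq2 and 1 to 4527 as each library was left out (4527 without deletion library 2, with Aqp4 among them, so members called were 0 to 1). For tTA::miR132 the genes called were 39 under DESeq2, 2 under limma-voom, 1 with the library number as a replicate block and 0 to 111 as each library was left out. For tTA::miR212 they were 1 with the replicate block and 0 to 18 as each library was left out, with Aqp4 called without tTA::miR212 library 1 (members called 0 to 1). Leaving out deletion library 2 moved the median log2 fold change of all genes by -0.11.

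Of 330 repeats of members' fold changes, 297 kept direction and side of the threshold, 31 turned in sign and 2 passed the threshold. As each library was left out, log2 fold changes in the deletion ranged from -1.20 to 0.15 (Aqp4), -0.48 to 0.0386 (Gja1), -0.49 to 0.39 (Gfap), -0.14 to 0.27 (Gjb6), -0.0936 to 0.0174 (Slc1a2), -0.0195 to 0.32 (Slc1a3), -0.0262 to 0.11 (Aldoc), -0.19 to 0.22 (Glul), -0.27 to 0.35 (S100b) and -0.0169 to 0.28 (Aldh1l1). In tTA::miR132 they ranged from -0.89 to 0.27 (Aqp4), -0.22 to 0.23 (Aldoc) and -0.15 to 0.0786 (S100b), and in tTA::miR212 from -0.13 to 0.19 (Slc1a2), -0.0381 to 0.0492 (Slc1a3), -0.0111 to 0.0796 (S100b) and -0.14 to 0.14 (Aldh1l1). Gfap in the deletion was -0.0219 under limma-voom and -0.0418 with the replicate block. With raw totals, an alternative chosen after seeing the data, Glul in the deletion was -0.00045, S100b in tTA::miR132 0.00883 and Slc1a3 in tTA::miR212 0.00512. The cause of these turns was not tested.

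The library numbers did not pair the libraries: deviations of same-numbered libraries correlated at 0.0181 in the deletion, 0.00967 for tTA::miR132 and -0.08, 0.02 and -0.03 for tTA::miR212. With TMM library sizes 58 of 60 group means of CPM moved by less than 1 SD. All 20 means of the tTA::miR212 table moved by more when the total over all transcripts was the divisor. This follows from the divisor, which is larger in every library of that table (3146667 against 1304567 counts in tTA::miR212 library 1). It says nothing about the differences between groups.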
